A study of Mus musculus with 16 samples.

Results

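The loss of Irf8 in common monocyte progenitors (cMoPs) was followed on 4 of the 16 single-colour arrays of the series. The members were the arrays whose titles name cMoPs, 2 of Irf8KO cells and 2 of wild-type (WT) cells, and every gene that passed the detection filter was compared between them. The Irf8KO cMoPs came from the bone marrow of Irf8-deficient mice and the WT cMoPs from that of wild-type mice, and both were sorted and taken without culture. For comparison the text uses Irf8KO and WT MDPs, the monocyte and dendritic cell progenitors of bone marrow, with 2 arrays each. It also uses 32Dcl.3 cells, a mouse myeloid progenitor line, grown in WEHI3B conditioned medium and collected 3 days after retroviral transduction with murine IRF8 beside an empty puro vector, or with both empty vectors, again with 2 arrays each. The allele, strain, sex and age of the animals, the antibodies of the sort and how many mice an array stands for are not stated in the labels. The arrays of a group are numbered as 2 experiments, and p-values cover the spread between these arrays only.

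IRF8 is a transcription factor of the interferon regulatory factor family. It binds DNA weakly alone and with partners such as PU.1 or other IRFs at composite elements, and in bone marrow it is known for supporting monocyte and dendritic cell development over that of neutrophils. The cMoP lies below the MDP and above the monocyte, and its usual surface phenotype is KIT and CSF1R positive with Ly6C. In mice that lack IRF8 neutrophils accumulate, and few mature monocytes form.

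Values are signals given as multiples of the array's own 75th percentile, and changes are differences of log2 signal, Irf8KO minus WT, with the standard error (SE) of the fit. The words rose and fell are kept for an adjusted p under 0.05 in limma's moderated test. The 75th percentile lay at 456 and 459 units on the Irf8KO arrays and at 544 and 568 on the WT arrays. Between 44.2 and 44.8% of probes were well above background on Irf8KO arrays and between 43.1 and 43.6% on WT arrays. Arrays of one group correlated across genes at 0.9973 for Irf8KO and 0.9970 for WT cells. All 4 arrays shared a slide, the Irf8KO arrays in positions 3 and 4 and the WT arrays in positions 1 and 2, so position and genotype cannot be told apart. With 2 arrays to a group, the precision of each value is limited by that number. In sorted cells measured in bulk, fewer cells of one kind and less RNA per cell cannot be told apart.

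Of 11963 genes tested 6472 passed, or 54.1%, with 2746 higher (23%) and 3726 lower (31.1%) in Irf8KO cMoPs. At least 2-fold changes were fewer, 581 higher (4.86%) and 440 lower (3.68%), together 8.53%. Counts of listed genes below stand beside these shares over all genes. With so many small changes called, the groups of arrays did not overlap for 81.9% of genes. The median change over all genes was -0.025, and it was -0.34 when arrays were scaled to their median. Higher genes made up 42.4% of those called, and 13.4% under that scaling. With the 75th percentile taken over detected probes only, 3314 genes were higher and 3098 lower, so the balance turned to 51.7% higher. Small changes therefore depended on the scaling, and the text says where the direction of a named gene turned. Scaling by array median also turned the medians of lists that are only counted below. These were interferon regulatory factors (0.043 to -0.27), Toll-like receptors (0.089 to -0.22), Fc receptors and TREMs (0.115 to -0.20) and integrins (0.27 to -0.040). Lysosomal (0.061 to -0.25), dendritic cell (0.23 to -0.084) and B cell (0.17 to -0.14) lists turned too. So did megakaryocyte, stromal and immediate early lists. Of the 581 genes at least 2-fold higher 384 were detected on all 4 arrays. Another 145 were well above background on both Irf8KO arrays and neither WT array, and 15 on none of the 4 arrays. Of the 440 genes at least 2-fold lower 265 were detected on all 4 arrays. Another 119 were well above background on both WT arrays and neither Irf8KO array, and 22 on none of the 4 arrays.

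**Figure D1:**
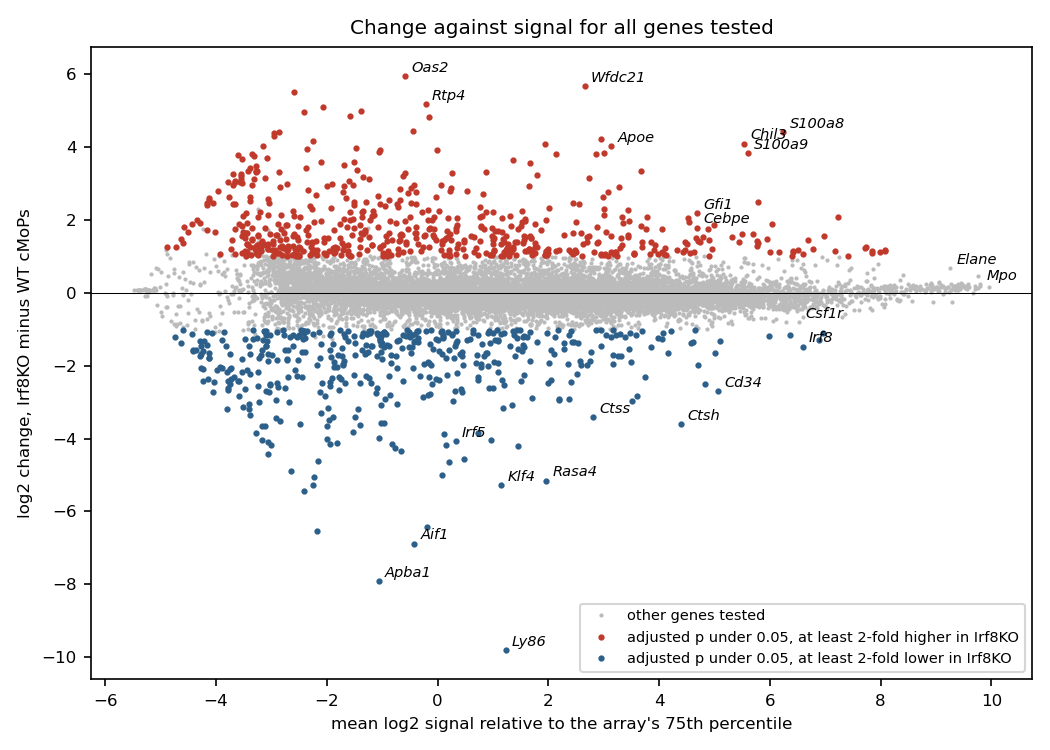
Log2 change (Irf8KO minus WT cMoPs) against the mean log2 signal relative to the array's 75th percentile, with 1 point per gene tested. Red points are the 581 genes at least 2-fold higher and blue points the 440 at least 2-fold lower with an adjusted p under 0.05, and named points are genes of the text.

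The single Irf8 probe read 57.1 and 58.7 in Irf8KO cMoPs and 160 and 162 in WT cMoPs. The groups lay far apart, yet the probe stayed well above background on both Irf8KO arrays. The change was -1.48 ± 0.037 (SE, adjusted p = 2.67e-10), against -0.55 in MDPs. The part of the transcript that the knockout allele lacks is not stated in the labels, so the probe alone did not check the genotype. The same probe was not well above background in 32Dcl.3 cells, neither on the IRF8 arrays, with processed signals of 13 and 11.4 units, nor on the empty vector arrays, with 13 and 6.76. Among the 5 measured genes next to Irf8 on either side of chromosome 8, Klhdc4 fell by 1.11, Slc7a5, an amino acid transporter gene, by 0.60 (-0.02 on its second probe), Gins2 by 0.37 and Emc8 by 0.32. Map1lc3b, the gene of an autophagy protein, rose by 0.56 and Fbxo31 by 0.24, a sign that turned with scaling by array median, as did that of Cox4i1. Cox4i1 changed by 0.014, Gse1 by 0.24 and Mthfsd by -0.064, and these did not pass. 1190005I06Rik, not well above background on either WT array, was at least 1.29-fold higher (adjusted p = 0.0324), a call lost when any one of the 4 arrays was left out.

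Of the genes of the usual surface phenotype, Csf1r, Kit and Ly6c1 were detected in both groups, and Ly6c2 was not analysed here. Ly6c1 read 609.8 and 598.5 in Irf8KO cMoPs and 586.8 and 604.7 in WT cMoPs, and its change of 0.02, which did not pass, turned to a passing fall of 0.29 with scaling by array median and of 0.14 after quantile normalization. Csf1r, the receptor of the monocyte growth factor M-CSF, read 69.2 and 70.4 in Irf8KO cMoPs and 120 and 122 in WT cMoPs, a change of -0.79 ± 0.034 (SE, adjusted p = 1.53e-08). Kit, the stem cell factor receptor, read 22.8 and 23.3 in Irf8KO cMoPs, against 10.5 and 11.4 in WT cMoPs. Both receptors were thus detected in both groups and moved in opposite directions, Kit by 1.07. Cx3cr1, the fractalkine receptor, gave 2.48 and 2.75 in Irf8KO cMoPs and 9.85 and 10.4 in WT cMoPs. Cd34 gave 12.9 and 13.3 in Irf8KO cMoPs and 85.0 and 85.7 in WT cMoPs. Those were falls of 1.95 and 2.70. Fcgr3, a low-affinity IgG receptor, rose by 1.40, Itgam, the integrin chain CD11b, by 0.29, and Flt3 fell by 0.21, the Itgam change turning negative with scaling by array median.

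Among the transcription factors of the monocyte lineage Klf4 fell furthest. Klf4, which supports monocyte differentiation, read 0.356 and 0.361 in Irf8KO cMoPs and 13.9 and 13.7 in WT cMoPs, a change of -5.27 ± 0.10 (SE, adjusted p = 3.87e-11). Irf5, an interferon regulatory factor of inflammatory macrophages, read 0.327 and 0.289 in Irf8KO cMoPs against 5.13 and 5.18 in WT cMoPs, a change of -4.07 ± 0.083. In both genes the Irf8KO arrays held a small part of the WT signal and replicates differed little. Pou2f2, encoding OCT2, fell by 2.29 and Zeb2, a repressor needed for monocytes and dendritic cells, by 0.47. Spi1, which encodes PU.1, was measured at 4.18 and 3.73 in Irf8KO cMoPs and 3.73 and 3.71 in WT cMoPs and did not pass (0.09 ± 0.085, SE). Id2, an inhibitor of E proteins, rose by 2.00. Of 13 measured factors of monocytes and macrophages 4 rose and 4 fell, 2 in each direction by at least 2-fold, with a median of 0.14 that turned to -0.18 under scaling by array median.

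The other interferon regulatory factor genes moved less than Irf5 and Irf8. Of 9 measured members 2 rose and 3 fell, where 23% and 31.1% of all genes did. Irf1 rose by 0.75, Irf9, the DNA-binding part of the type I interferon complex, fell by 0.55, and Irf7 was at least 2.16-fold higher (adjusted p = 0.000608). Irf4 was not well above background in either group. In the C/EBP family 3 of 6 members rose and 1 fell, with a median of 0.51, or 0.20 under scaling by array median. Cebpe, a factor of late neutrophil maturation, read 47.7 and 48.4 in Irf8KO cMoPs and 14.3 and 13.6 in WT cMoPs. Cebpa, a factor of early granulocyte and monocyte progenitors, read 19.0 and 18.7 in Irf8KO cMoPs and 10.3 and 10.1 in WT cMoPs. Their rises were 1.79 ± 0.044 and 0.88 ± 0.039, and Cebpd rose by 1.11. Cebpb changed by 0.11 and did not pass, and its value turned negative with scaling by array median. Gfi1, a repressor that supports neutrophil over monocyte fate, rose by 2.18 ± 0.045, with 52.5 and 57.2 in Irf8KO cMoPs and 12 and 12.2 in WT cMoPs. Of 8 granulocyte factors and receptors 5 rose, 4 of them by at least 2-fold, and 2 fell. Csf3r, the G-CSF receptor, changed by 0.05 and did not pass, with a negative value under quantile normalization and scaling by array median.

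The 12 largest falls among genes detected on all 4 cMoP arrays included Klf4, the largest, and Irf5. Rasa4, the next largest and a calcium-dependent inhibitor of Ras, read 0.646 and 0.660 in Irf8KO cMoPs and 22.7 and 23.8 in WT cMoPs, a change of -5.15 ± 0.047 (SE, adjusted p = 6.06e-13). Krt18, a keratin, fell by 5.0 and Arl5c, a small GTPase of the ARF-like family, by 4.57. Surface genes among the 12 were Itga1, a collagen-binding integrin chain, with a fall of 4.35, Itgb7, an integrin chain of gut homing, with 4.20, Plxnb2, a semaphorin receptor, with 4.04, and Thbd, thrombomodulin, with 3.85. Rab38, a GTPase of lysosome-related organelles, fell by 4.19 and Naip6, a member of the NLR family with near-identical copies, by 3.88. Hba-a2, an alpha globin gene, fell by 4.63. Adjusted p values of the 12 lay between 6.06e-13 and 2.39e-09.

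Larger falls were found among probes at background level on both Irf8KO arrays. There the fold is a minimum, with the Irf8KO signal raised to that of the faintest detected probe. Ly86, the secreted partner of the Toll-like receptor homologue CD180, read 0.063 and 0.0967 in Irf8KO cMoPs and 70.9 and 69.6 in WT cMoPs, at least 606-fold lower (adjusted p = 1.53e-11). Aif1, a calcium-binding protein of macrophages, read 0.0775 and 0.0613 in Irf8KO cMoPs and 7.92 and 8.38 in WT cMoPs, at least 70.2-fold lower. Both genes thus lay at background in Irf8KO cMoPs and well above it in WT cMoPs. Apba1, an adaptor protein gene, was at least 64.0-fold lower, Lpl, lipoprotein lipase, at least 19.1-fold and Stxbp6, a syntaxin-binding protein gene, at least 18.4-fold. Ppfia4 was at least 67.2-fold lower on its brighter probe, but its second probe changed by 0.54, so the gene has no settled direction.

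The largest rises among genes detected on all 4 arrays were led by proteins of neutrophils and by antiviral genes. Wfdc21, a small protein with a WAP domain, read 43.9 and 45.9 in Irf8KO cMoPs and 0.870 and 0.901 in WT cMoPs, a change of 5.66 ± 0.072 (SE, adjusted p = 2.14e-12). S100a8 and S100a9 encode the pair of chains of calprotectin. S100a8 read 345 and 351 in Irf8KO cMoPs and 16.3 and 16.7 in WT cMoPs. S100a9 read 175 and 190 in Irf8KO cMoPs and 13.1 and 12.7 in WT cMoPs. Both chains rose, by 4.40 ± 0.056 and 3.82 ± 0.083. Chil3, the chitinase-like protein Ym1, rose by 4.10, Apoe, a lipid carrier, by 4.03, and Mrgpra2b, a G protein-coupled receptor of the Mas-related family, by 3.83. Saa3, an acute phase protein, rose by 4.81 with a wider error of 0.51, and Tmem178, a membrane protein gene, by 4.22. Myo18b, an unconventional myosin, rose by 4.09 on the probe used, and its 3 probes ranged from 0.17 to 4.17. The WT probe was not well above background for Armc3, at least 19.6-fold higher, Ednra, an endothelin receptor, at least 16.3-fold, Shisa2, at least 15.2-fold, Xrcc5, a subunit of the Ku DNA repair protein, at least 14.4-fold, and Chil4, a near copy of Chil3, at least 12.9-fold. Whether a probe tells near-identical copies apart was not tested.

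**Figure D2:**
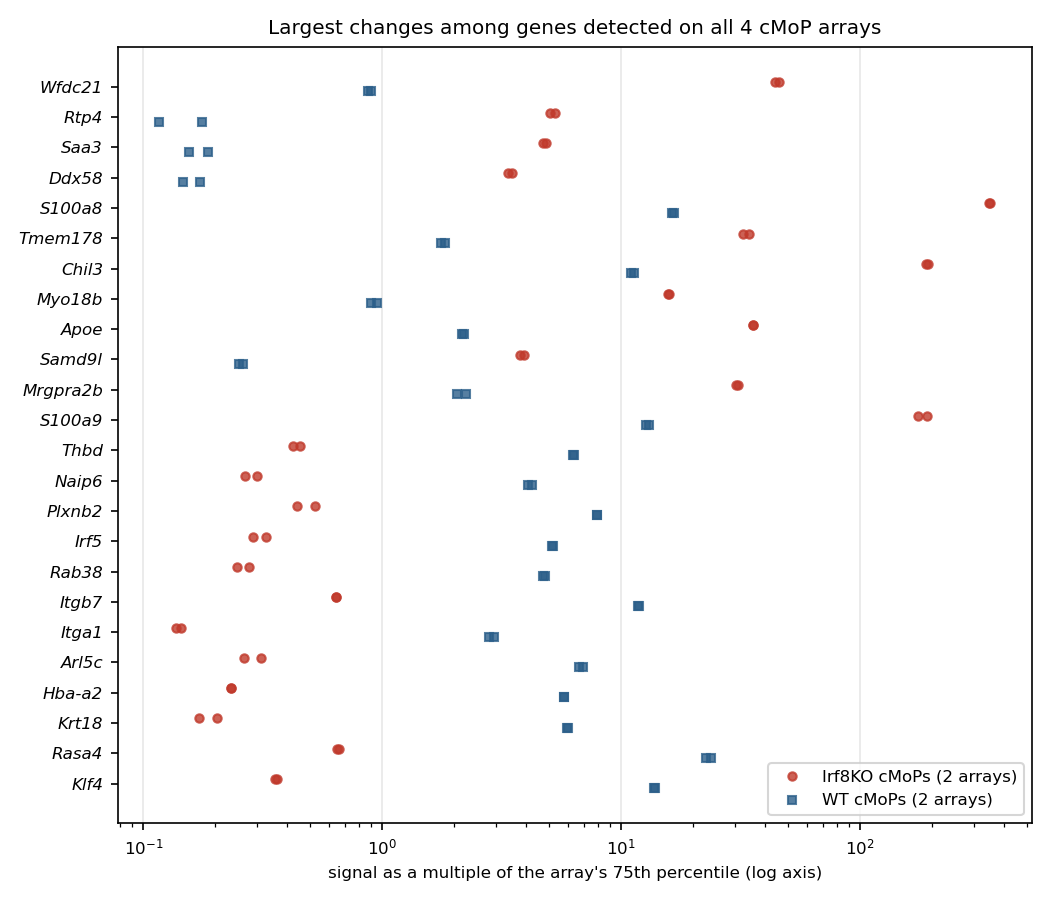
Signal on each cMoP array, as a multiple of its 75th percentile on a log axis, for the 12 largest rises and the 12 largest falls among genes detected on all 4 arrays. Red circles are Irf8KO cMoPs and blue squares WT cMoPs, 2 arrays each. The genes were picked for their size of change, and the groups do not overlap in 81.9% of all genes.

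Late neutrophil genes, the contents of secondary and tertiary granules and their companions, rose as a group. Of 17 measured 15 rose and 1 fell, where 23% and 31.1% of all genes did. A rise of at least 2-fold was found for 12 of the 17, beside 4.86% of all genes. The list median was 2.85, beside -0.025 for all genes. Another 9 listed genes had no probe that passed the filter, among them Mmp9 and Retnlg. The summed signal of the 17 measured genes was 1276 and 1323 in Irf8KO cMoPs and 307 and 309 in WT cMoPs. Lcn2, lipocalin of the specific granule, read 41.0 and 40.8 in Irf8KO cMoPs and 3.91 and 4.14 in WT cMoPs, and rose by 3.35 ± 0.079. Camp, the cathelicidin precursor, rose by 2.46, Ngp, a granule protein of the cystatin fold, by 2.85. Ltf, lactoferrin, was detected on both Irf8KO arrays and 1 of 2 WT arrays, with 1.24 and 1.18 in Irf8KO cMoPs and 0.0842 and 0.121 in WT cMoPs. Ifitm6, an interferon-induced membrane protein gene, was the member that fell, by 1.64, and Adam8 did not pass.

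Primary granule genes, which neutrophil and monocyte progenitors share, rose by less. Of 9 measured 8 rose and 1 fell, where 23% and 31.1% of all genes did. The list median of 0.66 stayed positive at 0.34 under scaling by array median. Elane, neutrophil elastase, read 786 and 763 in Irf8KO cMoPs and 475 and 490 in WT cMoPs, a rise of 0.68 ± 0.046. Prtn3, proteinase 3, rose by 0.66 and Ctsg, cathepsin G, by 0.45, the Ctsg call being lost with scaling by array median. Mpo, myeloperoxidase, read 983 and 956 in Irf8KO cMoPs against 804 and 830 in WT cMoPs, a rise of 0.25 that turned to -0.067 under scaling by array median. Prss57, a serine protease of the azurophil granule, rose by 1.98 and Serpinb1a, an inhibitor of these proteases, by 1.21. The member that fell was Ctsc, a protease that activates serine proteases of the granule. It read 3.81 and 3.93 in Irf8KO cMoPs and 11.9 and 12.1 in WT cMoPs, a change of -1.63. Of 7 subunits of the phagocyte NADPH oxidase 4 rose and none fell, Cybb by 0.91 and Ncf1 by 0.54, and the list median turned from 0.27 to -0.048 under scaling by array median.

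Ctsh, a lysosomal aminopeptidase, read 5.84 and 6.21 in Irf8KO cMoPs and 73.0 and 73.6 in WT cMoPs, a change of -3.60 ± 0.039 (SE, adjusted p = 7.63e-13). Ctss, the cathepsin that trims the invariant chain, read 2.13 and 2.17 in Irf8KO cMoPs and 23.2 and 22.9 in WT cMoPs, a change of -3.42 ± 0.038. Lgmn, legumain, was at least 5.38-fold lower (adjusted p = 1.96e-07). Of 14 cathepsins 5 rose and 6 fell, none rising and 5 falling by at least 2-fold, where 23% of all genes rose and 31.1% fell. Ctsl and Ctsb rose by 0.88 and 0.33, the Ctsb call being lost with scaling by array median, and the list median turned from 0.088 to -0.23 under scaling by array median.

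Of 11 measured MHC class II presentation genes 7 fell and 1 rose, with a median of -0.46, where 31.1% and 23% of all genes did. H2-DMa, a chain of the peptide exchange factor, read 3.28 and 3.29 in Irf8KO cMoPs and 13.2 and 12.6 in WT cMoPs, and fell by 1.97 ± 0.057. Ifi30, the thiol reductase of the endosome, fell by 1.92. H2-DMb2 was at least 2.96-fold lower, a call lost without WT array 2 (adjusted p = 0.0556). H2-Ab1, a chain of the presenting molecule itself, moved the other way, with 7.23 on both Irf8KO arrays and 3.75 and 3.88 on the WT arrays, a rise of 0.92. Cd74, the invariant chain, changed by -0.11 and did not pass, and neither did Ciita, the coactivator of the class II genes, which was not well above background in WT cMoPs. Of 20 genes of MHC class I presentation 9 rose and 7 fell. The class I heavy chain H2-K1 rose by 1.22, H2-D1 by 0.90 and B2m, the light chain, by 0.62. Nlrc5, the coactivator of the class I genes, rose by 0.67 and Tapbpl, a peptide editor, fell by 0.81. The class I list median was 0.085, and -0.23 under scaling by array median.

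Interferon-stimulated antiviral genes moved unequally, with more rises than falls. Of 39 measured 27 rose and 7 fell, 15 and 1 of them by at least 2-fold, where 23% and 31.1% of all genes rose and fell, and 4.86 and 3.68% by at least 2-fold. Under scaling by array median 19 rose and 12 fell, and the list median was 0.059 in place of 0.37. Rtp4, a receptor transporter, read 5.05 and 5.28 in Irf8KO cMoPs and 0.177 and 0.117 in WT cMoPs, a change of 5.17 ± 0.15 (SE, adjusted p = 7.19e-10). Ddx58, the RNA sensor RIG-I, read 3.36 and 3.48 in Irf8KO cMoPs and 0.146 and 0.172 in WT cMoPs, a change of 4.43 ± 0.089. Samd9l, a translation inhibitor, rose by 3.91. The oligoadenylate synthetase genes Oas2 and Oas1c were at least 44.5-fold and 9.51-fold higher, as neither was well above background in WT cMoPs. Isg15, the ubiquitin-like modifier, rose by 1.21 ± 0.058, with 3.81 and 3.99 in Irf8KO cMoPs and 1.61 and 1.76 in WT cMoPs. Ifit1 was well above background on 1 of 2 Irf8KO arrays and neither WT array. The member that fell by at least 2-fold was Trim30a, by 1.03. Guanylate-binding protein and immunity-related GTPase genes were mixed, 4 of 12 rising and 4 falling. Gbp2 rose by 1.12 and Gbp3 fell by 0.83, and the list median turned from 0.11 to -0.21 under scaling by array median.

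Promoter windows are shown for the named genes with a fitted change of at least 2-fold that passed and whose window held an IRF element, since IRF8 binds such sequences. The letters GAAA, any 2 bases and GAAA, the core of the interferon-stimulated response element (ISRE), and GGAA, any 2 bases and GAAA, the core of the composite of an ETS factor and an IRF (EICE), were searched on both strands in the 250 bases before the start of each gene. The 2 patterns cannot match at the same bases on one strand. Of 138 named genes 50 lower and 57 higher ones had a window, and a match was held by 4 of the lower and 5 of the higher genes. The windows come from RefSeq on GRCm38.p6 and are printed on the strand of the gene, with matches in capitals and up to 20 bases on either side. A match on the other strand reads TTTC, 2 bases and TTTC, or TTTC, 2 bases and TTCC. The Pou2f2 match is of the EICE core and the others of the ISRE core. The 4 lower genes were Aif1 (chr17:35176180-35176229, minus strand), Ctss (chr3:95526745-95526785, plus), Dpp4 (chr2:62412254-62412303, minus) and Pou2f2 (chr7:25132551-25132600, minus).
Aif1: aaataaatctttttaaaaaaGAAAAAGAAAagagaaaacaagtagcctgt
Ctss: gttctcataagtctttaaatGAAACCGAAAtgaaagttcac
Dpp4: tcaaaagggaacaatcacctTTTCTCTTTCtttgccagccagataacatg
Pou2f2: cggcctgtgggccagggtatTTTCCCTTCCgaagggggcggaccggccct

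The 5 higher genes were Isg15 (chr4:156200855-156200916, minus strand), Ifit1 (chr19:34640765-34640833, plus), Oas1c (chr5:120812593-120812648, minus), Gbp2 (chr3:142620584-142620633, plus) and Saa3 (chr7:46715772-46715821, minus). Isg15 held 3 overlapping matches, and Ifit1 and Oas1c held 2 each. Ifit1 was near background, so the size of its change is uncertain.
Isg15: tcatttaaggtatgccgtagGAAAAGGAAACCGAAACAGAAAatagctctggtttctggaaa
Ifit1: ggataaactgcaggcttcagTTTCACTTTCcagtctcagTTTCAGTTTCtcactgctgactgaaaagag
Oas1c: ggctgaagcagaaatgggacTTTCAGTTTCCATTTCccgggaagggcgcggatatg
Gbp2: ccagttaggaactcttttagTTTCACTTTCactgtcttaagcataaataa
Saa3: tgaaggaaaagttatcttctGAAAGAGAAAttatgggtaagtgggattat

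The Ctss match began 21 bases before the start, the Gbp2 match 59 and the first Isg15 match 78. The ISRE core was found for 6.45% of 341 genes at least 2-fold lower and 6.33% of 442 at least 2-fold higher in Irf8KO cMoPs. The share was 3.25% over all 9654 tested genes with a window and 3.46% over the 27025 genes of the table. The EICE core was found for 2.64% of the lower and 2.26% of the higher genes, beside 2.41% of tested genes and 2.68% of the table. The shares describe letters in a window, and binding was not measured.

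Receptors for cytokines and microbes changed in both directions, as did all genes, of which 23% rose and 31.1% fell. Of 24 myeloid cytokine receptor genes 11 rose and 9 fell, with a median of 0.11 that turned to -0.21 under scaling by array median. Ifngr1, a chain of the interferon gamma receptor, read 85.7 and 91.6 in Irf8KO cMoPs and 34.2 and 34.8 in WT cMoPs, a rise of 1.36 ± 0.055. Il1r2, the decoy receptor of interleukin-1, was at least 2.96-fold higher, while Il1r1, the signalling receptor, fell by 1.18 with 1 of 2 Irf8KO arrays above background. Tnfrsf11a, the receptor RANK, rose by 1.20 and Csf2ra, a GM-CSF receptor chain, by 0.58. Il10ra fell by 1.63 and Il6ra by 0.69. Among Toll-like receptor genes Tlr4, the endotoxin receptor, rose by 1.55, with 1.48 and 1.42 in Irf8KO cMoPs and 0.484 and 0.507 in WT cMoPs, and Tlr7, a sensor of RNA, by 1.06 on the brighter of its 2 probes, the other giving 5.15. Tlr12 was at least 8.66-fold lower, with 0.0563 and 0.0699 in Irf8KO cMoPs and 1.00 and 1.01 in WT cMoPs. Unc93b1, which carries nucleic acid-sensing receptors to endosomes, fell by 0.47. Tlr2 and Cd14 changed by -0.04 and 0.01 and did not pass, the Cd14 value turning negative with scaling by array median. Of 21 genes on this list 8 rose and 6 fell, and under scaling by array median 4 rose and 11 fell.

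Lectin and Fc receptor genes split by member, and of all genes 23% rose and 31.1% fell. Of 14 C-type lectin receptor genes 8 rose and 3 fell, with a median of 0.47, and 5 rose and 5 fell under scaling by array median, with a median of 0.15. Olr1, the receptor of oxidised LDL, rose by 2.62, Clec5a by 2.23 and Clec4e, the glycolipid receptor Mincle, by 0.69. Clec4a3 read 1.72 and 0.357 in Irf8KO cMoPs and 0.124 and 0.133 in WT cMoPs, of which 1 was well above background, and its call was lost without Irf8KO array 1 (adjusted p = 0.0505). Clec10a, a galactose-binding lectin, fell by 1.73 and Clec9a, a receptor for dead cells on dendritic cells, was at least 1.23-fold lower. Of 20 Fc receptor, TREM and adaptor genes 8 rose and 5 fell, and under scaling by array median 5 rose and 8 fell. Trem3 rose by 1.74 and Trem1 by 0.53. Trem2, a lipid receptor of macrophages, read 1.80 and 1.82 in Irf8KO cMoPs and 9.52 and 9.51 in WT cMoPs, and fell by 2.39 ± 0.077. Lilrb4a, an inhibitory receptor, fell by 1.93 (by 0.78 on its second probe). Tyrobp, the adaptor DAP12, rose by 0.30, a sign lost with scaling by array median, and Fcer1g changed by -0.09 and did not pass.

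Adhesion and trafficking genes showed the same mixture, beside 23% of all genes rising and 31.1% falling. Of 14 integrin genes 8 rose and 4 fell, and beside the falls of Itga1 and Itgb7 the beta 3 chain Itgb3 fell by 1.13. Itgb5 rose by 1.60, with 8.50 and 8.41 in Irf8KO cMoPs and 2.77 and 2.81 in WT cMoPs. Itgax, the chain CD11c, was at least 4.81-fold higher, with 0.890 and 0.347 in Irf8KO cMoPs. Ccr2, the receptor that leads monocytes out of the marrow, rose by 0.53, Cxcr2, a neutrophil chemokine receptor, by 1.19, and Cxcr4, the marrow retention receptor, fell by 0.34. The chemokine gene Ccl9 rose by 1.28 and Ccl6 fell by 1.66. Of 10 S100 genes 6 rose and 3 fell. Against the rise of the calprotectin chains, S100a6 fell by 2.45, S100a10 by 1.06 and S100a4 by 1.47, the last reading 4.70 and 4.61 in Irf8KO cMoPs and 12.7 and 13.1 in WT cMoPs. Of 30 surface and effector genes of monocytes and macrophages 13 rose and 8 fell, with a median of 0.21 that turned to -0.10 under scaling by array median. Ahnak, a large scaffold protein, fell by 2.26 on the probe used and between 0.85 and 2.26 over its 4 probes. Lgals3, galectin-3, read 10.1 on both Irf8KO arrays and 31.7 and 31.8 on the WT arrays.

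**Figure D3:**
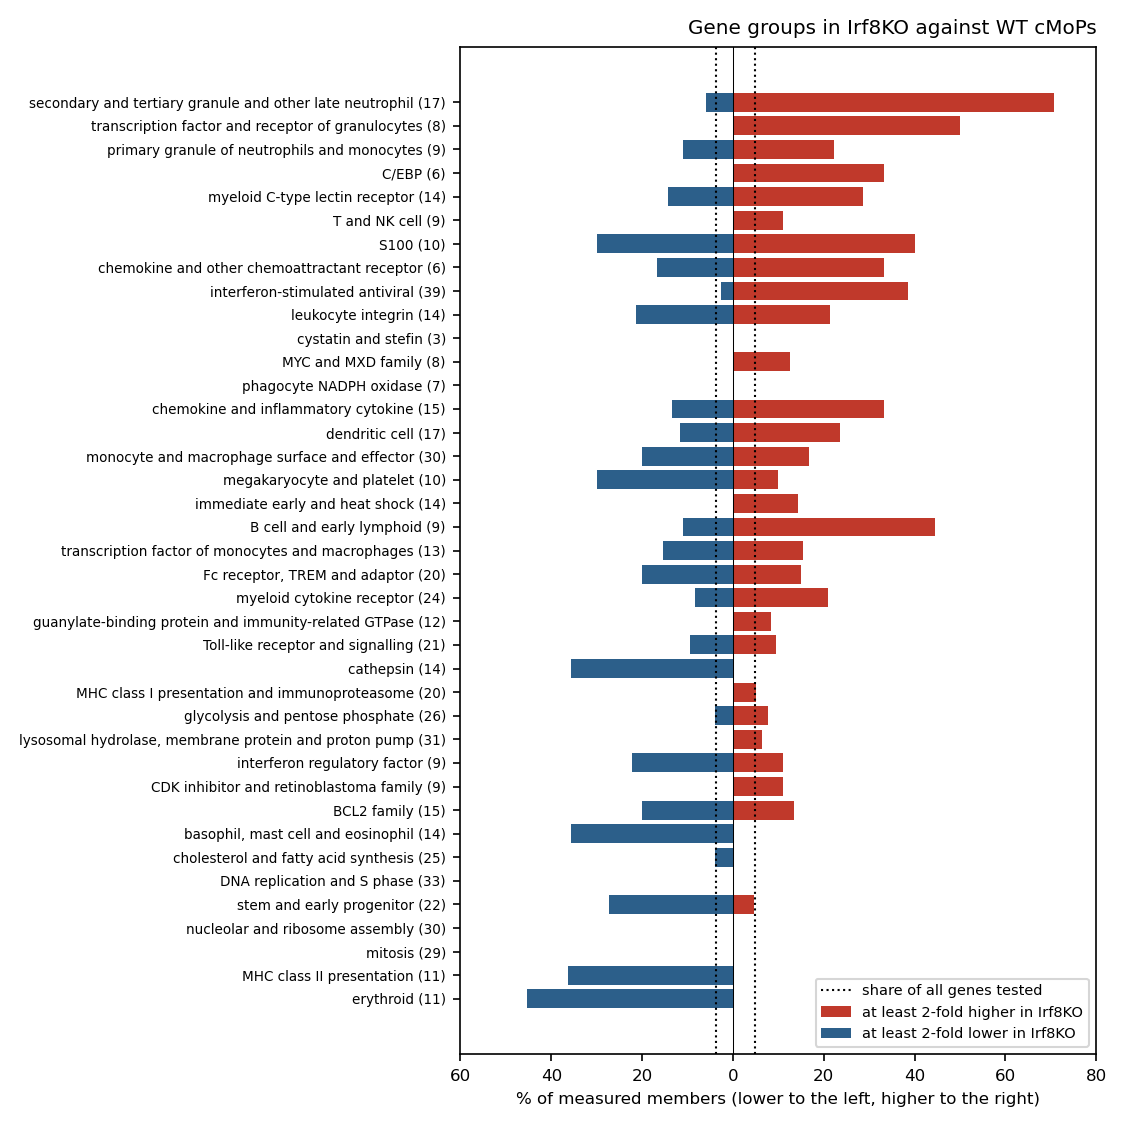
Share of the measured members of each gene group that were at least 2-fold higher (red, right) or lower (blue, left) in Irf8KO cMoPs with an adjusted p under 0.05, and the number measured in brackets. Dotted lines mark the share over all 11963 genes, 4.86% higher and 3.68% lower, and groups are ordered by their median change, late neutrophil genes at the top with 12 of 17 higher.

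Most measured genes of cell division and ribosome assembly were slightly lower. All 29 measured mitosis genes fell and none by 2-fold, with a median of -0.43 and a range of -0.80 to -0.17. Plk1, a mitotic kinase, read 27.3 and 26.7 in Irf8KO cMoPs and 44.0 and 43.0 in WT cMoPs, a change of -0.69 ± 0.034. Mki67, the proliferation marker Ki-67, fell by 0.43, Ccna2, cyclin A, by 0.60 and Kif23, a kinesin of cytokinesis, by 0.80. Of 33 DNA replication genes 27 fell and 1 rose, with a median of -0.28. The riser was the helicase subunit Mcm6, by 0.14, a call lost without Irf8KO array 1 (adjusted p = 0.117) or WT array 2 (adjusted p = 0.0961) and a sign that turned with scaling by array median. Ccne1, cyclin E, fell by 0.78 and Tk1, thymidine kinase, by 0.74. Of 30 nucleolar genes 27 fell and none rose, with a median of -0.37, Fbl, the RNA methyltransferase fibrillarin, by 0.53. The medians of the 3 lists kept their sign in the 3 other scalings and after normexp, from -0.23 to -0.74, and 31.1% of all genes fell. Myc rose by 0.38, a call lost with scaling by array median, and its antagonists Mxd1 and Mxd4 rose by 0.87 and 0.93 while Mxd3 fell by 0.81. The CDK inhibitor gene Cdkn1a rose by 0.35, a call lost with scaling by array median, Cdkn1c was at least 3.46-fold higher, and Cdkn2c and Cdkn2d fell by 0.39 and 0.40.

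Regulators of cell death included both survival and death genes. The counts here stand beside 23% of all genes rising and 31.1% falling. Of 15 BCL2 family genes 2 rose and 7 fell. Bcl2, the survival protein, read 3.40 and 3.51 in Irf8KO cMoPs and 8.45 and 9.16 in WT cMoPs, and fell by 1.35 ± 0.064. The BH3-only genes divided, with Bbc3 (PUMA) falling by 1.80 and Pmaip1 (NOXA) rising by 1.44. Bmf rose by 2.34, detected on 1 of 2 WT arrays. Among 26 glycolysis and pentose phosphate genes 13 rose and 7 fell, with a median of 0.081 that was -0.23 under scaling by array median. Pfkfb4 and Pfkfb3, which make the activator of phosphofructokinase, rose by 1.38 and 1.12, Slc2a3, a glucose transporter, fell by 1.31 and Ldha, lactate dehydrogenase, by 0.39. Among 31 lysosomal genes outside the cathepsins 11 rose and 10 fell, and under scaling by array median 2 rose and 20 fell. The sialidase Neu1 rose by 1.40 and Psap, the saposin precursor, fell by 0.79. Of 25 genes of cholesterol and fatty acid synthesis 4 rose and 10 fell, Elovl6, a fatty acid elongase, by 1.47.

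Genes that mark other kinds of cell differed between genotypes to different extents, and their part in the results above was not tested. Among 22 genes of stem cells and early progenitors, 11 fell and 4 rose, with a median of -0.30, where 31.1% and 23% of all genes did. Gata2, a factor of stem cells and of basophils, was at least 4.29-fold lower, with 0.504 and 0.491 in WT cMoPs, and Meis1 fell by 3.58 with 1 of 2 Irf8KO arrays above background. Myb, a progenitor factor, rose by 0.60. Of 11 erythroid genes 5 fell and 1 rose, and their summed signal was 7.99 and 8.07 in Irf8KO cMoPs and 16.3 and 15.9 in WT cMoPs. Besides Hba-a2 the beta globin gene Hbb-bt was at least 11.2-fold lower, while Klf1 and Alas2 had no probe above the filter. Of 14 basophil, mast cell and eosinophil genes 3 rose and 5 fell, with sums of 32.3 and 31.3 in Irf8KO cMoPs and 28.2 and 28.9 in WT cMoPs. Only 10 of the 14 were well above background on both arrays of a cMoP group, and 4 were so on no cMoP array. The falls included Cpa3 and Prg2, which were not well above background in either cMoP group, so these 2 calls rest on background signal. The Prg2 change was -0.042 after normexp and did not pass. Mcpt8, a basophil protease, rose by 0.34, a call lost with scaling by array median, and Prg3, which encodes a protein of eosinophil granules, was lower by at least 2.63-fold.

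Lymphoid, platelet and dendritic cell markers were faint or mixed, and their counts stand beside 23% of all genes rising and 31.1% falling. Some counted genes were not well above background on both arrays of either cMoP group. Those that were numbered 6 of the 9 B cell, 6 of the 9 T and NK cell, 8 of the 10 platelet and 13 of the 17 dendritic cell genes. Of 9 B cell and early lymphoid genes 4 rose and 2 fell, with sums of 16.6 and 16.4 in Irf8KO cMoPs and 15.9 and 16.1 in WT cMoPs. Vpreb1, the surrogate light chain of pre-B cells, read 2.06 and 2.03 in Irf8KO cMoPs against 0.598 and 0.655 in WT cMoPs, a rise of 1.71, while Cd79a, Pax5 and Ebf1 had no probe above the filter. Among 9 genes of T and NK cells, none fell and 2 rose. Their sums were 128 and 132 in Irf8KO cMoPs and 67.6 and 68.3 in WT cMoPs, and most of that signal was the granule membrane gene Nkg7, with 118 and 122 in Irf8KO cMoPs and 59.0 and 59.8 in WT cMoPs, while Cd3d, Cd3g and Cd247 had no probe above the filter. Of 10 megakaryocyte and platelet genes 3 rose and 3 fell. Of 17 dendritic cell genes 6 rose and 4 fell, Relb by 1.47 and Bcl11a by 1.16 among those that rose, and Dpp4 was at least 11.3-fold lower. Of 7 stromal and endothelial genes 3 rose and 1 fell. Of 14 immediate early and heat shock genes 7 rose and 2 fell, Fos by 1.10 and Jun by 0.61, with sums of 391 and 400 in Irf8KO cMoPs and 342 and 359 in WT cMoPs. Neither Xist nor the 2 Y-linked genes measured passed, and the Y-linked Ddx3y read 3.31 and 3.30 in Irf8KO cMoPs and 3.13 and 3.05 in WT cMoPs.

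The change in cMoPs was set against that in MDPs through their difference, cMoP change minus MDP change. MDP and cMoP arrays lay on separate slides and differed in sex-linked genes. The Y-linked Ddx3y read 3.05 to 3.31 on the 4 cMoP arrays and 0.0323 to 0.0413 on the 4 MDP arrays, and Xist, which is expressed from an inactive X chromosome, read 0.0240 to 0.0275 on cMoP and 1.20 to 1.75 on MDP arrays. Stage, slide and the sex of the animals therefore cannot be told apart. The difference passed for 2980 of 11963 genes, or 24.9%, 1390 positive (11.6%) and 1590 negative (13.3%). Without WT cMoP array 1 the positive count was 890, and without WT cMoP array 2 the negative count was 1045. Of the 440 genes at least 2-fold lower in Irf8KO cMoPs it passed for 279, and in 260 of them the cMoP fall was the larger. Of the 581 genes at least 2-fold higher it passed for 294, and in 273 the cMoP rise was the larger. These genes were chosen on the cMoP change, which is part of the difference, so the counts are a description. Among the 24 largest changes of genes detected on all 4 cMoP arrays, Rtp4, Samd9l and Ddx58 rose at both stages. The differences of these 3 genes, 0.20, -0.34 and 0.38, did not pass. Itgb7 fell by 4.20 in cMoPs and 0.76 in MDPs, a difference of -3.44 ± 0.058 (SE). Plxnb2 differed by -3.11, Irf5 by -2.34 and Rasa4 by -1.84.

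Some genes had opposite signs at the 2 stages. S100a9 read 175 and 190 in Irf8KO cMoPs and 13.1 and 12.7 in WT cMoPs, but fell by 1.38 in Irf8KO MDPs, a difference of 5.20 ± 0.12 (SE, adjusted p = 4.3e-09). Camp, Ltf and Cebpe did likewise, with fitted differences of 4.45, 5.21 and 2.39, Camp and Ltf being faint in MDPs, at most 0.298 on any array. S100a8, the partner of S100a9, rose at both stages, by 4.40 in cMoPs and 3.78 in MDPs. Cx3cr1 and S100a4 fell in cMoPs but rose in MDPs, by 0.92 and 1.79, with differences of -2.87 ± 0.073 and -3.27 ± 0.080. Lgmn, at least 5.38-fold lower in Irf8KO cMoPs, read 5.23 and 5.13 in Irf8KO MDPs and 3.22 and 2.81 in WT MDPs, a rise of 0.78. Cell cycle genes also differed in part, with Plk1 at -0.72 and Ccna2 at -0.53, while the differences of Tk1 and Ccne1, -0.05 and 0.15, did not pass.

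**Figure D4:**
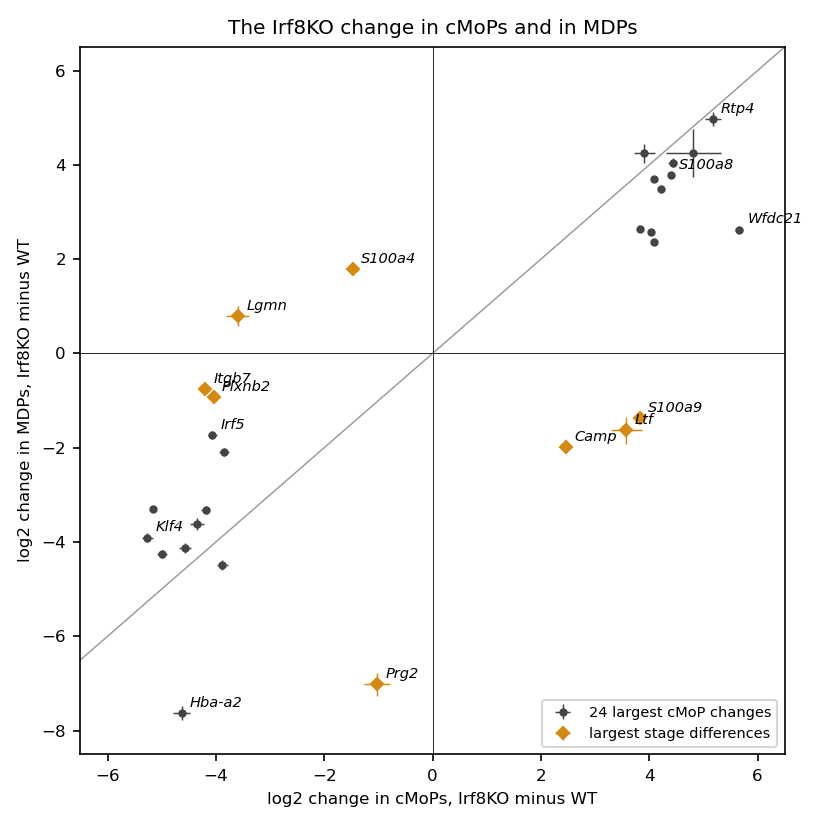
Log2 change of Irf8KO minus WT in cMoPs (horizontal) against that in MDPs (vertical), with SE bars, for the 24 largest cMoP changes (dark points) and the 8 largest stage differences among named genes (orange). Points on the diagonal have equal changes, and S100a9, Ltf, Camp, Lgmn and S100a4 lie in the quadrants of opposite sign. Prg2 was not well above background in either cMoP group.

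The 32Dcl.3 arrays labelled as IRF8 and as empty vectors came from separate samples on another slide. As given above, no 32Dcl.3 array had Irf8 signal well above background, and whether the probe reads the introduced cDNA is not stated in the labels, so the arrays are grouped by label alone. Of 11206 genes measured in both systems, 315 (2.81%) were at least 2-fold higher and 103 (0.919%) at least 2-fold lower on the arrays labelled IRF8 than on those of empty vectors. Of the 313 genes at least 2-fold lower in Irf8KO cMoPs 72, or 23%, rose with IRF8, which is 22.9% of the 315, and 10, or 3.20%, fell. Of the 437 genes at least 2-fold higher in Irf8KO cMoPs 37, or 8.47%, fell with IRF8, which is 35.9% of the 103, and 43, or 9.84%, rose, which is 13.7% of the 315. Both directions thus held larger shares than the 0.919 and 2.81% of all genes. Ctss read 37.0 and 37.2 with IRF8 and 0.661 and 0.729 with empty vectors, a rise of 5.74. Trem2 read 6.97 and 6.96 with IRF8 and 0.198 and 0.219 with empty vectors, and H2-DMa 8.41 and 8.39 with IRF8 and 0.166 and 0.174 with empty vectors. The 3 genes that fell in Irf8KO cMoPs thus rose by over 5 log2 units in 32Dcl.3 cells.

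The 12 largest falls and rises that follow are those of genes detected on all 4 cMoP arrays, counted in 32Dcl.3 cells by adjusted p alone. By that measure, with no fold limit, 3023 of all 13337 genes tested in 32Dcl.3 cells rose and 3387 fell with IRF8. Of the 12 falls 9 were measured in 32Dcl.3 cells, where 6 rose and 2 fell with IRF8. Rasa4 rose by 3.69, Arl5c by 3.21, Itgb7 by 1.36, Plxnb2 by 1.27, Irf5 by 1.12 and Naip6 by 0.28. Rab38 and Hba-a2 fell, by 0.74 and 1.78, and Klf4 changed by 0.08 and did not pass, with 0.434 and 0.420 on the IRF8 arrays and 0.387 and 0.420 on the empty vector arrays. Among the 12 largest rises 10 were measured, of which 2 rose and 5 fell with IRF8. Wfdc21 fell by 2.64, Ddx58 by 1.41, Samd9l by 1.16, S100a9 by 0.68 and S100a8 by 0.27. Chil3 rose by 0.53 and Saa3 by 2.18. Of the genes named for their roles, Csf1r rose by 3.61 with IRF8 and Gfi1 fell by 1.28, each opposite to its change in Irf8KO cMoPs. Others rose in Irf8KO cMoPs and with IRF8 alike, among them Csf2ra by 1.85, Fcgr3 by 1.32 and B2m by 0.53 in 32Dcl.3 cells. How many named genes went each way was not counted. H2-Ab1 rose in both, with 15.8 and 16.2 on the IRF8 arrays and no empty vector array well above background.

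**Figure D5:**
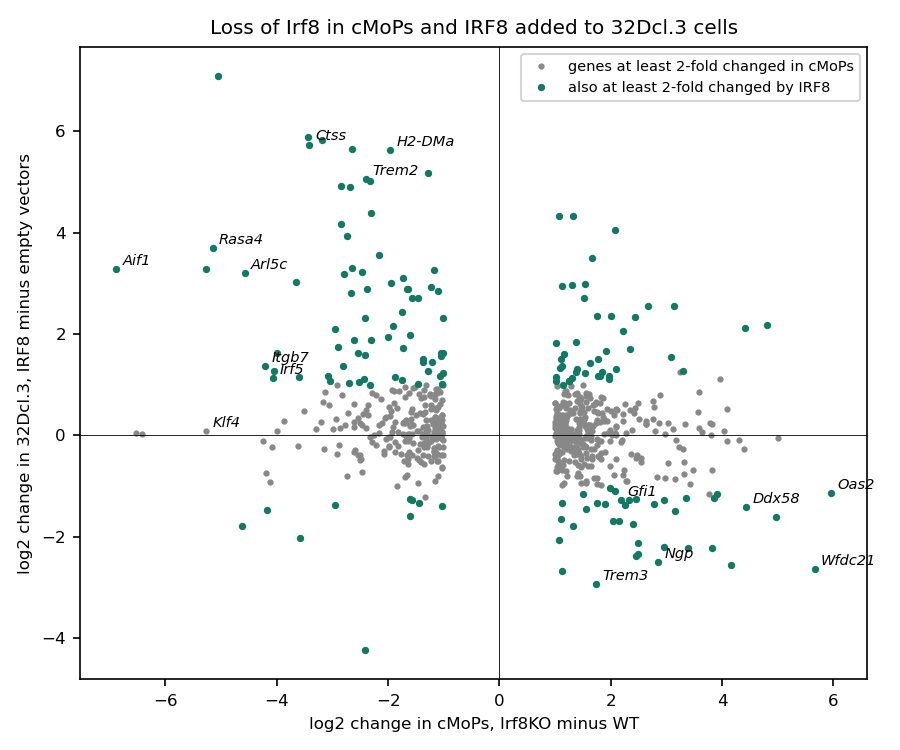
Log2 change in cMoPs (Irf8KO minus WT, horizontal) against that in 32Dcl.3 cells (IRF8 minus empty vectors, vertical) for genes at least 2-fold changed in cMoPs and measured in both systems. Green points are also at least 2-fold changed by IRF8, 72 of them at upper left, 37 at lower right, 43 at upper right and 10 at lower left.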

How the data were processed

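RNA of sorted bone marrow progenitors and of transduced 32Dcl.3 cells was hybridised to single-colour Agilent arrays, 16 in all in 8 groups of 2. The deposited values were processed signal intensities, background-subtracted by Agilent Feature Extraction 10.7.3.1 with protocol GE1_107_Sep09, per the file headers. The deposited flags for signal well above background, saturation and outliers are other yes or no values set by the same software, per the file headers. The deposited series values were the same intensities times 1 constant per array. Flagged outlier spots were dropped, spots of a probe averaged, and each array's log2 signal set against its 75th percentile. Log2 values were computed here from the deposited intensities. A probe was kept when well above background (over 0.5 of its spots) on both arrays of at least 1 of the 4 progenitor groups, and the brightest probe stood for a gene. Gene symbols were assigned by matching each probe's accession to RefSeq transcripts. Of 55681 probes 26762 had a match and 28919 had none. limma 3.58.1 in R 4.3.3 (lmFit, eBayes with a trend) was fitted to the 8 progenitor arrays and separately to the 8 32Dcl.3 arrays, with Benjamini-Hochberg adjustment over all genes and a threshold of 0.05, and was tested on simulated data. A minimum fold sets the bright group's mean against the higher of the dim probe's own signal and the lowest signal among detected probes on each array.

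Genes named were Irf8 and its neighbours, the 12 largest changes each way detected on all 4 cMoP arrays, the 6 largest minimum folds each way, key members and the 5 largest changes of each list, and the 4 largest stage differences each way. Ifitm6, Adam8, Trim30a, Mcm6 and Ly6c1 were added after their values were seen. The members and lists were chosen with earlier results of these data known. The planned normexp alternative used median spot signals, as mean signals were not among the columns used. Alternatives covered scaling, background correction, dim-probe filters, the arrays fitted, probe choice, the deposited series values, a replicate block and leaving out each array. Whether arrays of the same experiment number pair is not stated in the labels, and residuals of same-numbered cMoP arrays correlated at -0.025, so the numbers were not used as pairs.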

Additional observations from a re-analysis of the deposited data

Results flagged for a closer look

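In 8 named genes the Irf8KO minus WT change differed most between cMoPs and MDPs, by the test of the difference itself (cMoP change minus MDP change, log2, limma). MDPs and cMoPs were on separate slides and differed in the sex-linked genes Ddx3y and Xist, so stage, slide and the sex of the animals cannot be told apart. Late neutrophil genes gave positive differences, with 5.21 for Ltf, 5.20 for S100a9 and 4.45 for Camp, all higher in Irf8KO cMoPs and lower in Irf8KO MDPs. Ltf and Camp were faint in MDPs, at most 0.298 on any array, so the size of their differences is uncertain. Prg2, an eosinophil granule gene, differed by 5.99, but it was not well above background in either cMoP group, so the difference is that of the MDPs, with 0.0420 and 0.0414 in Irf8KO MDPs and 5.61 and 5.21 in WT MDPs. Negative differences were -4.38 for Lgmn and -3.27 for S100a4, both lower in Irf8KO cMoPs and higher in Irf8KO MDPs. The Lgmn value is a fitted one against a probe not well above background in Irf8KO cMoPs, so its size and its place among the others are uncertain. Itgb7 at -3.44 and Plxnb2 at -3.11 were lower in Irf8KO cells at both stages, by more in cMoPs.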

How the results depend on the processing

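Scaling each array to its median gave 1093 genes higher and 7043 lower in Irf8KO cMoPs, 380 and 744 of them by at least 2-fold. For the stage difference it gave 498 positive and 3711 negative, 453 of the negative ones by at least 2-fold, and 2032 genes lower with IRF8 in 32Dcl.3 cells. Genes at least 2-fold higher in cMoPs numbered 385 among those detected on all 4 arrays, 906 with no filter on dim probes and 373 after normexp. Those at least 2-fold lower numbered 266 and 273 under the first and last of these settings. The filter to detection on all 8 progenitor arrays left 103 positive and 132 negative stage differences of at least 2-fold, with fewer genes tested. Leaving out 1 array at a time gave 2130 to 2289 genes higher and 2949 to 3229 lower in cMoPs, and 890 to 1445 positive and 1045 to 1786 negative stage differences. Scaling by array median turned Cd14 to -0.30, Cebpb to -0.21, Cox4i1 to -0.30, Csf3r to -0.27 (-0.11 by quantile), Fbxo31 to -0.073, Itgam to -0.023, Ly6c1 to -0.29 (-0.14 by quantile), Mcm6 to -0.17, Mpo to -0.067 and Tyrobp to -0.0092, and ended the calls of Ctsb, Ctsg, Cdkn1a, Myc and Mcpt8. With detection on all 4 arrays Ppfia4 was 0.54, from its other probe. The cause of these shifts was not tested. The replicate block gave 2776 higher and 3838 lower genes in cMoPs, 1475 positive and 1730 negative stage differences, and 2992 higher and 3324 lower genes in 32Dcl.3 cells. Dim probes near background limit the values of genes not detected in one group.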
